A study of Mus musculus with 12 samples.

Results

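Hypoxia-inducible factor 1 alpha and 9 genes of its response (Hif1a, Egln1, Egln3, Vegfa, Adm, Ddit4, Ndrg1, Ankrd37, Bnip3 and Ero1l) were followed in murine hip cartilage post injury. The genes were chosen by name, with earlier results of these data known. Every probe that carried 1 of the 10 symbols was taken, which gave 19 probes of the 45281 on the array. Of these, 12 probes of 8 genes were among the 21004 probes for which the authors deposited normalized values. All probes of Bnip3 and Ero1l lay outside that table.

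Cells keep the alpha subunits of the hypoxia-inducible factor (HIF) scarce while oxygen is plentiful: prolyl hydroxylases mark them, the von Hippel-Lindau protein binds the mark and the proteasome degrades them. When oxygen falls, the alpha subunit persists, pairs with Arnt and binds short motifs near target genes for glucose uptake, glycolysis, vessel growth and mitochondrial turnover. Adult cartilage has no vessels, and its chondrocytes live at low oxygen and rely on HIF-1 for survival and matrix synthesis.

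RNA was measured on Illumina mouse BeadChips, which carry 50-base probes on coated beads, in 12 samples that formed 4 groups of 3 arrays. WT control and WT injured hips came from C57BL6 mice, and Mapk9 KO control and Mapk9 KO injured hips came from mice of the same background that the labels call MAPK9 KO (Mapk9 is the gene of the stress kinase JNK2). Mice were 4 to 6 weeks old by the labels (5 to 6 weeks in the methods). By the methods, which do not name the Mapk9 KO arrays, each replicate pooled 6 hips of 3 mice. Injury was the avulsion of the femoral epiphysis. Control hips were frozen at once, whereas the injured ones spent 4 h in serum-free medium, so that injury and culture cannot be told apart in any change given here. The methods describe the control and injured sets and give no further account of the Mapk9 KO mice. Mapk9 itself remained detected at 1 of its 2 probes in the Mapk9 KO groups but was lower on all 6 Mapk9 KO arrays than on any WT array at both probes of the normalized table.

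The tissue was not chondrocytes alone. All 8 tested chondrocyte markers, Acan and Sox9 among them, were detected in every group, and so were 12 skeletal muscle markers in both control groups. Counting a gene as changed when at least 1 of its probes was called, 6 of the 8 chondrocyte markers were upregulated post injury in either genotype, and 10 of 12 muscle markers in WT and 12 of 12 in Mapk9 KO were downregulated. Of all genes, 8.36% in WT and 10.6% in Mapk9 KO were called higher (changed by more than 2-fold with an adjusted p below 0.05) and 8.25% and 10.4% lower. The summed level of the muscle markers (linear scale) was 58339 to 86611 on the WT control, 8483 to 30494 on the WT injured, 103373 to 157971 on the Mapk9 KO control and 11098 to 25485 on the Mapk9 KO injured arrays. The summed level of the chondrocyte markers was 26990 to 45444, 65582 to 79527, 26270 to 39961 and 60374 to 73451 in the same order. Markers of other cells moved too: 2 of 4 adipocyte markers in WT and 3 of 4 in Mapk9 KO were downregulated. So were 4 of 8 and 5 of 8 osteoblast and osteoclast markers, Bglap at a lesser probe only. Of 10 macrophage and neutrophil markers, Elane, Ngp and Mpo (Mpo at lesser probes only) were upregulated in both genotypes. Csf1r and Emr1 were downregulated in both and Cd68 in Mapk9 KO, while 5 in WT and 4 in Mapk9 KO were not called. The neutrophil genes S100a8, S100a9 and Camp were among those not called in either. The part of these shifts in the changes below was not tested, and in pooled tissue fewer cells of a type and less RNA per cell cannot be told apart.

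The first 30 bases of the probes of Hif1a, Egln1, Egln3, Vegfa and Ankrd37 are shown because the comparison of the genotypes turned on the first of these genes and because several genes had more than 1 probe. The 3 Egln1 probes start within 4 bases of each other and share at least 46 of their 50 bases, so they were 1 measurement repeated and not 3. The paired probes of Egln3 and of Vegfa were each designed from different transcript records.
Hif1a probe: gcatctccatcttctacccaagtacctcaa
Egln1 probe 1: tcaatcgtggccatcggctccttggacagc
Egln1 probe 2: atcgtggccatcggctccttggacagccac
Egln1 probe 3: ctcaatcgtggccatcggctccttggacag
Egln3 probe 1: cgtgtgtgttccctttaacggttcatcgtc
Egln3 probe 2: tgaaaaaagtgccagggagaagcaggcagg
Vegfa probe 1: catcacgtctttgtctctagagcagttttc
Vegfa probe 2: ggcaggacccgcaagcccctcacggaggca
Ankrd37 probe: caagccattgctttggctcatcacatgatg

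HIF binds DNA at a core that reads ACGTG or GCGTG. The 250 bases before the RefSeq gene start (GRCm38.p6) were searched for both on either strand, where the reverse strand reads CACGT or CACGC. A window was found for 9 of the 10 genes, Ndrg1 not among them, and 9 of their 10 windows had at least 1 core. Vegfa had 2 windows, of which the upstream one held no core and the downstream one, at a second start, held 2. Of all 32851 windows in the table, 38.6% held either core, 16.6% ACGTG and 28.2% GCGTG, and these shares were not matched to the GC content of the members, which ranged from 50.8% to 86.0%. The windows of Hif1a, its hydroxylases Egln1 and Egln3, and the targets Ddit4 and Ankrd37 are printed to show the cores in the regulator, in its sensors and in targets with large rises, and they are written along the gene with the cores in capitals. A match describes letters only.
Hif1a, chr12:73907617-73907866, plus strand: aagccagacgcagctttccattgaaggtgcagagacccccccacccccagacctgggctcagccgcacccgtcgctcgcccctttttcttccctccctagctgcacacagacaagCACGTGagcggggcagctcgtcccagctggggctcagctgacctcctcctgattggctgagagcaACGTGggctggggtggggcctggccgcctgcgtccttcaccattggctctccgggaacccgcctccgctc
Egln1, chr8:124949255-124949504, minus strand: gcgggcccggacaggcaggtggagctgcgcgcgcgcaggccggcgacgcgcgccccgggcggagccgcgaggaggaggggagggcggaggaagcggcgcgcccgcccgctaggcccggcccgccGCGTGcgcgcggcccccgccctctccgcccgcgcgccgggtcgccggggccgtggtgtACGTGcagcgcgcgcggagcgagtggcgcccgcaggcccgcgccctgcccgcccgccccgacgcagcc
Egln3, chr12:54203875-54204124, minus strand: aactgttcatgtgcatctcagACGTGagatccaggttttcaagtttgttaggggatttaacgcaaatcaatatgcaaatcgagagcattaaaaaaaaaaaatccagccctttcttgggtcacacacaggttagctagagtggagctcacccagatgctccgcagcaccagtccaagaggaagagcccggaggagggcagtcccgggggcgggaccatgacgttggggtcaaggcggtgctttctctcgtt
Ddit4, chr10:59951771-59952020, minus strand: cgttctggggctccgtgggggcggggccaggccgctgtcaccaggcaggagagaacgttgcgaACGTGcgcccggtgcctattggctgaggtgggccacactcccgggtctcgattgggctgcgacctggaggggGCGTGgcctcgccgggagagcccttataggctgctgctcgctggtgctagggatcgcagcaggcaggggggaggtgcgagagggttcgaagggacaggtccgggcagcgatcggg
Ankrd37, chr8:45999851-46000100, minus strand: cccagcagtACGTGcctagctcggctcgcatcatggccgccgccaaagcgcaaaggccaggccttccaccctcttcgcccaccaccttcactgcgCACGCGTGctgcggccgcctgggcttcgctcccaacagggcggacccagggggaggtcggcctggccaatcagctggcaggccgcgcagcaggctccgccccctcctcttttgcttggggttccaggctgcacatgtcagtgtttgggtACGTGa
In the Hif1a window the palindrome at the first core was counted on both strands, at positions -135 and -134 from the start, and a further match lay at -70. Ankrd37 had 4 matches, Egln1 and Ddit4 had 2 each, and Egln3 had 1. Adm had 2 matches of GCGTG and none of ACGTG.

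Most of the 8 measured genes were upregulated post injury in both genotypes. The genes were chosen with earlier results of these data known, so the counts below are a description and not a test. In WT, 6 of 8 genes (8 of 12 probes) were called, that is, changed by more than 2-fold with an adjusted p below 0.05. All of these were higher, where 8.36% of all genes and 7.55% of all probes were called higher. In Mapk9 KO, 8 of 8 genes and 12 of 12 probes were called, where 10.6% of all genes and 9.59% of all probes were called higher. The median change over the main probes of the 8 genes (for each gene, its brightest probe on average) was 2.52 on the log2 scale in WT and 2.93 in Mapk9 KO, beside medians of -0.02 and -0.04 over the main probes of all 15424 genes. Adm was detected on the 6 injured arrays and on no control array. Ankrd37, Egln1 probe 3 and Egln3 probe 2 were detected on all injured arrays and on 1 control array. All Egln1 probes were undetected on the Mapk9 KO control arrays. Such probes may have entered the normalized table through the groups in which they were high, and their calls carry that limit. The rule of entry is not given, and 254 normalized probes were detected on no array.

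**Figure D1:**
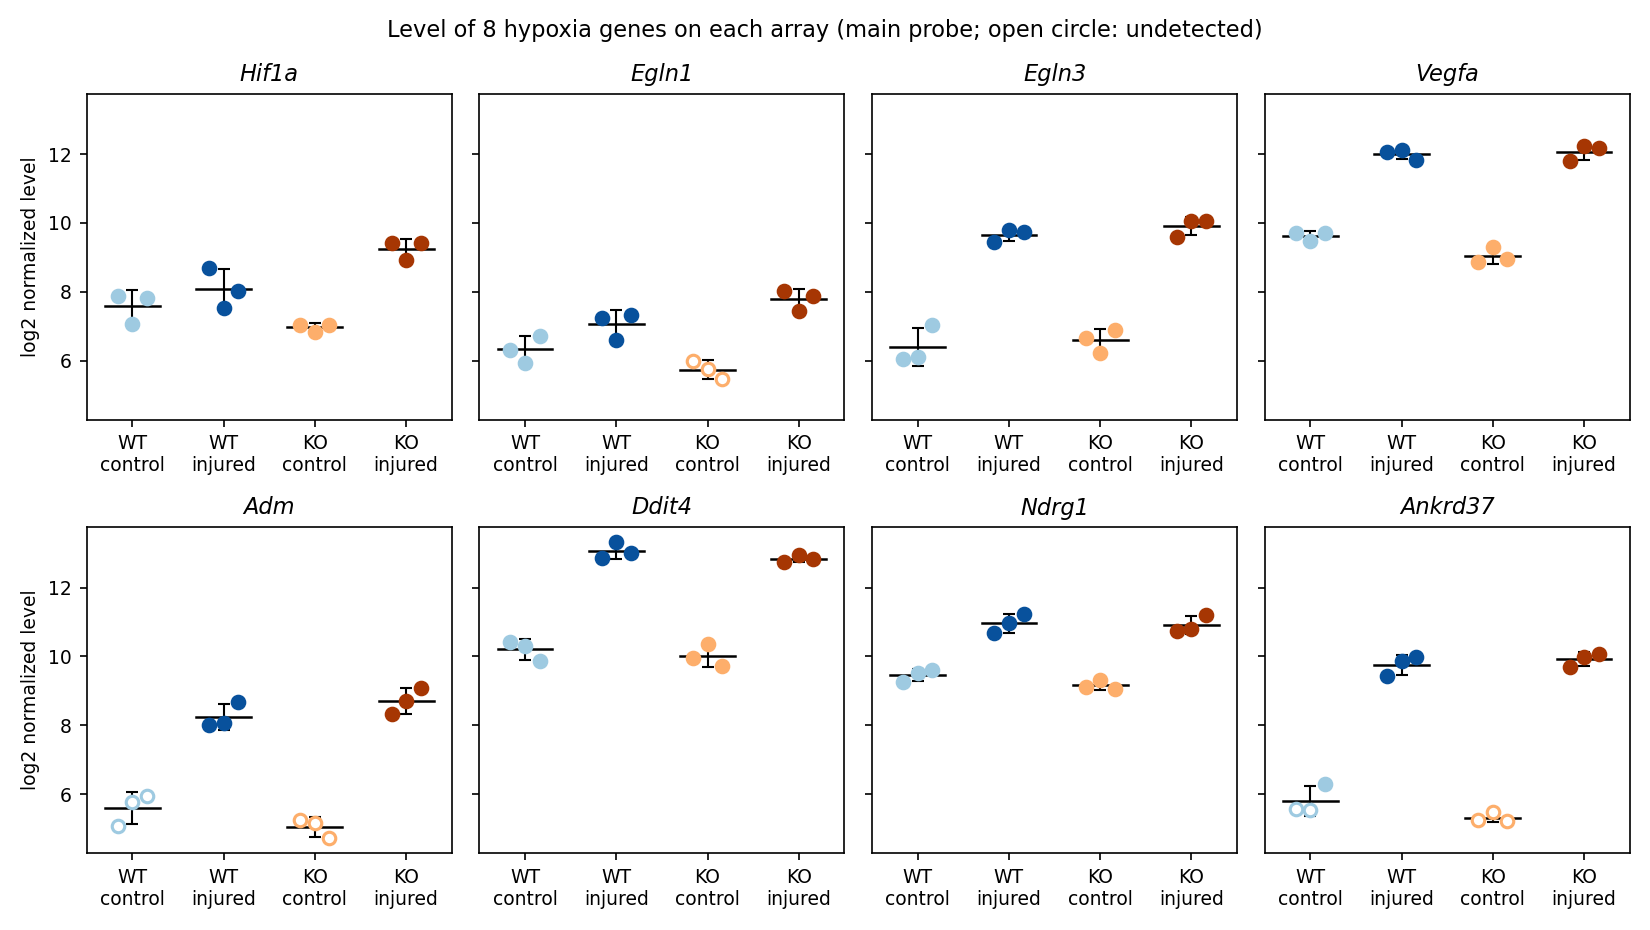
Normalized level (log2) of the main probe of 8 genes on each of the 12 arrays, by group. Filled circles were detected and open circles were not, and lines with bars give the mean ± SD of 3 arrays. The injured arrays lie above the control arrays in every panel except WT Hif1a and WT Egln1, where the groups overlap.

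Hif1a, the oxygen-regulated subunit, was the gene with the largest fitted difference between the genotypes among the 12 probes. All Hif1a levels and changes given here come from its only probe in the normalized table. On the WT control arrays its level was 7.88, 7.07 and 7.82 (log2, replicates 1 to 3) and on the WT injured arrays 8.69, 7.54 and 8.02. These groups overlapped. The change was 0.49 ± 0.32 (log2, standard error), a fold of 1.41, with an adjusted p of 0.302 (limma). It rested on single arrays: the change was 0.19 without WT injured replicate 1, 0.23 without WT control replicate 2 and 0.76 without WT injured replicate 2, and it passed in none of these.

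On the Mapk9 KO control arrays Hif1a was at 7.04, 6.84 and 7.03 and on the Mapk9 KO injured arrays at 9.41, 8.92 and 9.43. Every injured array lay above every control array by more than 1 log2 unit. Of all probes, 24.5% in Mapk9 KO and 20.3% in WT had injured arrays above all control arrays by any margin. The change was 2.28 ± 0.19, a fold of 4.87 (adjusted p = 7.59e-06, limma). The 3 Mapk9 KO control arrays were also the 3 lowest of the 12, and the 3 Mapk9 KO injured arrays the 3 highest.

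The difference between the 2 changes, tested as the interaction of genotype and injury, was 1.79 ± 0.40 for Hif1a, with a 95% interval of 0.93 to 2.66 and an unadjusted p of 0.000553 in limma. After adjustment over all probes it did not pass (adjusted p = 0.277), and 0.0% of probes did, although 2088 of 21004 had an unadjusted p under 0.05. With the replicate number as a block, by which the samples were treated as paired, it passed (1.79 ± 0.26, adjusted p = 0.0287), as 1 of 112 probes. Over all alternatives the Hif1a adjusted p ran from 0.0287 to 0.647. With the block and any 1 replicate number left out it no longer passed, with fewer arrays and a difference of about the same size: 1.91, 1.88 and 1.58 without numbers 1, 2 and 3, with adjusted p values of 0.189, 0.0812 and 0.161.

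Within replicate numbers, Hif1a changed by 0.81, 0.47 and 0.19 in WT and by 2.37, 2.08 and 2.40 in Mapk9 KO (log2, injured minus control). No WT change reached the lowest Mapk9 KO change. Both conditions made up the fitted separation, though neither passed in the main fit. Mapk9 KO minus WT was -0.62 ± 0.25 in the control groups (adjusted p = 0.718, limma). It was 1.17 ± 0.28 in the injured groups (adjusted p = 0.21, limma). The control difference passed under no alternative. The groups did not overlap in either condition, which was so for 6.57% of all probes downward among controls and 7.36% upward among injured arrays. Among the injured arrays the difference passed with the block (adjusted p = 0.0494) and without WT injured replicate 1 (1.48 ± 0.24, adjusted p = 0.0381), where the alternatives gave adjusted p values between 0.0381 and 0.583. The blocked call was also lost with any 1 replicate number left out, with differences of 1.40, 1.07 and 1.05 and adjusted p values of 0.0716, 0.176 and 0.0702 without numbers 1, 2 and 3. Beside this, the muscle markers had a median Mapk9 KO minus WT difference of 1.16 among controls, -0.13 among injured arrays and -1.15 for the interaction, with 0 of 12 called in each.

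**Figure D2:**
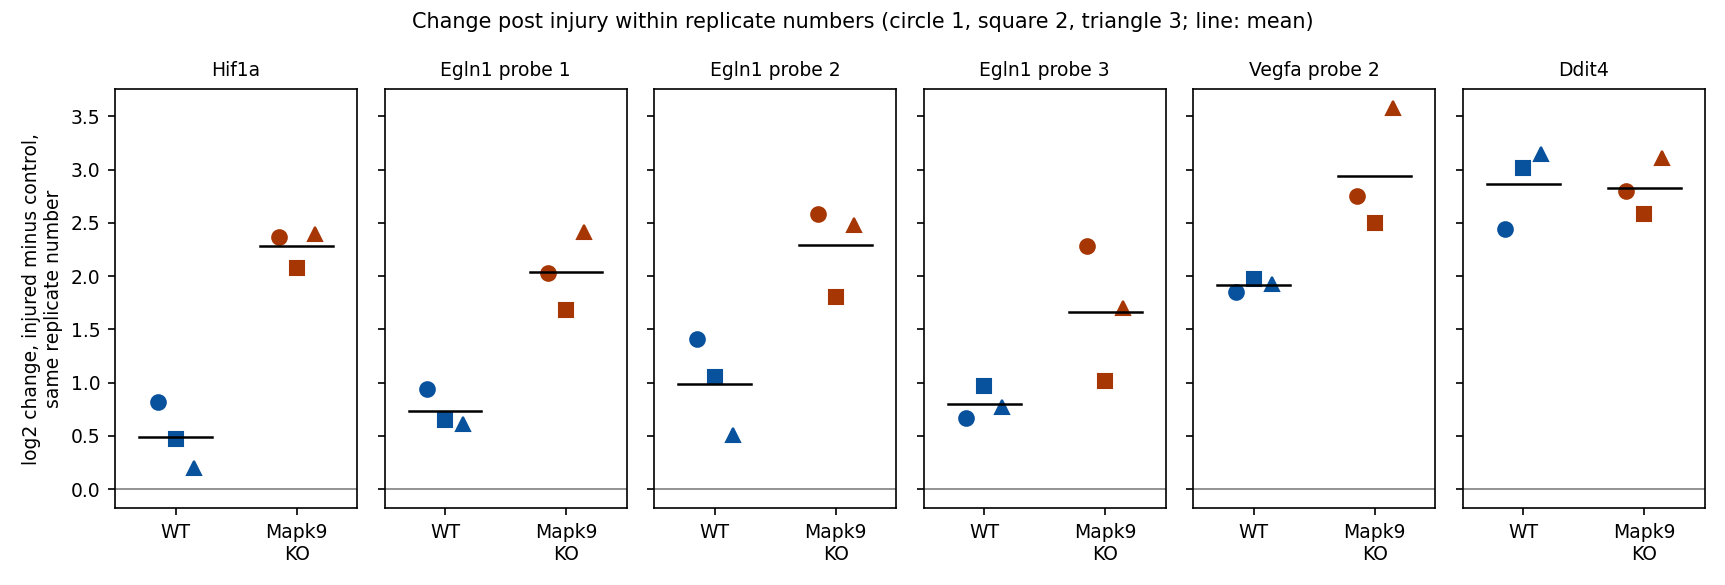
Change post injury (log2, injured minus control array of the same replicate number) for Hif1a, the 3 Egln1 probes, the second Vegfa probe and Ddit4. Marker shapes give the replicate number and lines the mean of 3. For Hif1a the WT points lie between 0.19 and 0.81 and the Mapk9 KO points between 2.08 and 2.40, while the points of Ddit4 overlap.

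Egln1 and Egln3 encode prolyl hydroxylases, the enzymes that tag the alpha subunits and that are themselves HIF targets. At the main Egln1 probe the level was 6.31, 5.94 and 6.73 on the WT control and 7.25, 6.59 and 7.34 on the WT injured arrays. It was 6.00, 5.77 and 5.46 on the Mapk9 KO control arrays, where the probe was undetected, and 8.03, 7.45 and 7.87 on the Mapk9 KO injured arrays. The WT groups overlapped and the Mapk9 KO groups did not.

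In WT, the Egln1 changes were 0.73 ± 0.27, 0.99 ± 0.34 and 0.80 ± 0.34 at probes 1 to 3, with adjusted p values of 0.0779, 0.0573 and 0.114 in limma. With the replicate block in limma the adjusted p values were 0.0204, 0.0152 and 0.0140. The changes, of 1.66-fold, 1.98-fold and 1.74-fold, then missed only the fold limit. Probe 2 passed with normexp and quantile normalization (1.06 ± 0.31, adjusted p = 0.0347), with array medians subtracted (1.04 ± 0.33, adjusted p = 0.0434), without WT control replicate 3 (1.29 ± 0.32, adjusted p = 0.0198) and without WT injured replicate 2 (1.27 ± 0.35, adjusted p = 0.0347). Probe 3 passed without WT control replicate 3 (1.13 ± 0.31, adjusted p = 0.028). In Mapk9 KO, Egln1 was at least 3.60-fold, 3.46-fold and 2.49-fold higher post injury at the 3 probes (adjusted p = 3.48e-05, 1.22e-05 and 0.00174). Among the WT control arrays probe 2 was detected on 2 and probe 3 on 1. The Mapk9 KO values are lower bounds, taken against the lowest detected signal of each control array. They hold for the deposited values only: over the alternatives the fitted change at probe 1 in Mapk9 KO fell to 1.03 (log2). Probe 3 lost its Mapk9 KO call with the methods' t-test (adjusted p = 0.061) and, by the fold limit, with quantile normalization without background correction (0.77 ± 0.16).

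The Egln1 changes differed between the genotypes by 1.31 ± 0.36 at probe 1, 1.30 ± 0.43 at probe 2 and 0.86 ± 0.52 at probe 3 (interaction, log2), with adjusted p values of 0.312, 0.36 and 0.616. The block gave adjusted p values of 0.0786, 0.107 and 0.307, so the difference did not pass either way. Since Egln1 was undetected on the Mapk9 KO control arrays, these differences rest in part on values near background.

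Egln3 rose in both genotypes at both probes. At probe 1 the level was 6.04, 6.10 and 7.04 on the WT control and 9.44, 9.79 and 9.74 on the WT injured arrays. In Mapk9 KO it was 6.66, 6.23 and 6.88 before and 9.60, 10.06 and 10.06 post injury. WT control replicate 3 was the highest of the 6 control arrays, and still lay below every injured array by more than 2 log2 units.

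Egln3 probe 1 rose by 3.26 ± 0.28 in WT (9.60-fold, adjusted p = 4.4e-05) and by 3.32 ± 0.22 in Mapk9 KO (9.98-fold, adjusted p = 1.34e-06). Over the alternatives its change fell to 2.18 in WT and 2.37 in Mapk9 KO. Probe 2 rose by 1.78 ± 0.21 in WT (adjusted p = 0.000305) and was at least 2.91-fold higher in Mapk9 KO (adjusted p = 2.42e-05), where it was undetected before injury. In WT it was detected on 1 of the 3 control arrays, so that its change there is also against values near background. With quantile normalization without background correction, probe 2 missed the fold limit in WT (0.89 ± 0.10) and Mapk9 KO (0.90 ± 0.09). The interaction was 0.06 ± 0.37 at probe 1, with a 95% interval of -0.75 to 0.86, which also holds differences of up to 0.86 log2 units. One further Egln3 probe, outside the normalized table, was undetected on all arrays.

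Vegfa, the growth factor that draws vessels toward hypoxic tissue, and Adm, the vasodilator adrenomedullin, were both upregulated. At Vegfa probe 1 the level was 9.71, 9.47 and 9.70 on the WT control, 12.07, 12.12 and 11.83 on the WT injured, 8.86, 9.29 and 8.96 on the Mapk9 KO control and 11.79, 12.24 and 12.19 on the Mapk9 KO injured arrays. All injured arrays lay more than 2 log2 units above all control arrays. The injured groups overlapped between genotypes, and the Mapk9 KO control arrays all lay below the WT control arrays.

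Vegfa rose by 2.38 ± 0.20 in WT (5.20-fold, adjusted p = 3.54e-05) and by 3.04 ± 0.20 in Mapk9 KO (8.20-fold, adjusted p = 1.25e-06) at probe 1. At probe 2 the rises were 1.92 ± 0.20 (3.77-fold, adjusted p = 0.000149) and 2.94 ± 0.26 (7.70-fold, adjusted p = 1.02e-05). The interaction was 0.66 ± 0.26 at probe 1 and 1.03 ± 0.34 at probe 2, with adjusted p values of 0.428 and 0.36 (0.225 and 0.109 with the block). The lower Mapk9 KO control level at the 2 probes (-0.59 ± 0.21 and -0.84 ± 0.29) did not pass either (adjusted p = 0.646 and 0.608).

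Adm was undetected on all 6 control arrays. Its level was 8.01, 8.05 and 8.68 on the WT injured and 8.32, 8.72 and 9.09 on the Mapk9 KO injured arrays. It was at least 5.29-fold higher post injury in WT (adjusted p = 0.000142) and at least 6.85-fold higher in Mapk9 KO (adjusted p = 1.07e-06). These bounds hold for the deposited values only: over the alternatives the fitted Adm change fell to 1.39 (log2) in WT and 1.92 in Mapk9 KO. The injured groups of the 2 genotypes overlapped and differed by 0.46 ± 0.25 (adjusted p = 0.473).

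Ddit4, also known as Redd1, restrains the growth kinase complex mTORC1 under stress. Its level was 10.43, 10.31 and 9.87 on the WT control, 12.87, 13.33 and 13.02 on the WT injured, 9.95, 10.36 and 9.72 on the Mapk9 KO control and 12.75, 12.94 and 12.83 on the Mapk9 KO injured arrays. The control groups overlapped with each other, as did the injured groups. The rise was 2.87 ± 0.23 in WT (7.30-fold, adjusted p = 2.81e-05) and 2.83 ± 0.20 in Mapk9 KO (7.11-fold, adjusted p = 2.07e-06). The interaction was -0.04 ± 0.30, with a 95% interval of -0.68 to 0.60.

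Ndrg1, a stress-responsive gene of differentiation, had the smallest rise among the genes that passed in both genotypes. Its level was 9.27, 9.53 and 9.61 on the WT control, 10.69, 10.98 and 11.23 on the WT injured, 9.10, 9.31 and 9.06 on the Mapk9 KO control and 10.75, 10.80 and 11.22 on the Mapk9 KO injured arrays. No injured array overlapped a control array. The rise was 1.49 ± 0.22 in WT (2.81-fold, adjusted p = 0.000897) and 1.76 ± 0.19 in Mapk9 KO (3.39-fold, adjusted p = 4.02e-05). A second probe, listed as Ndrl in the deposited table and named Ndrg1 by its RefSeq accession, rose by 1.82 ± 0.19 and 1.85 ± 0.19 and was not counted among the 12.

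Ankrd37, a small ankyrin repeat protein induced by HIF-1, had a large rise in both genotypes, from control levels at or near background. Its probe stood in the normalized table under an older name and was matched by probe identity. It was at 5.58, 5.54 and 6.30 on the WT control arrays, detected only on replicate 3, and at 9.44, 9.86 and 9.98 on the WT injured arrays. On the Mapk9 KO arrays it was undetected before injury and reached 9.69, 9.996 and 10.07 post injury. The rise in WT was 3.95 ± 0.26 (15.5-fold, adjusted p = 9.23e-06), and in Mapk9 KO it was at least 15.8-fold (adjusted p = 8.51e-08). Both sizes hold for the deposited values only: over the alternatives the fitted Ankrd37 change fell to 2.51 (log2) in WT and 2.85 in Mapk9 KO.

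**Figure D3:**
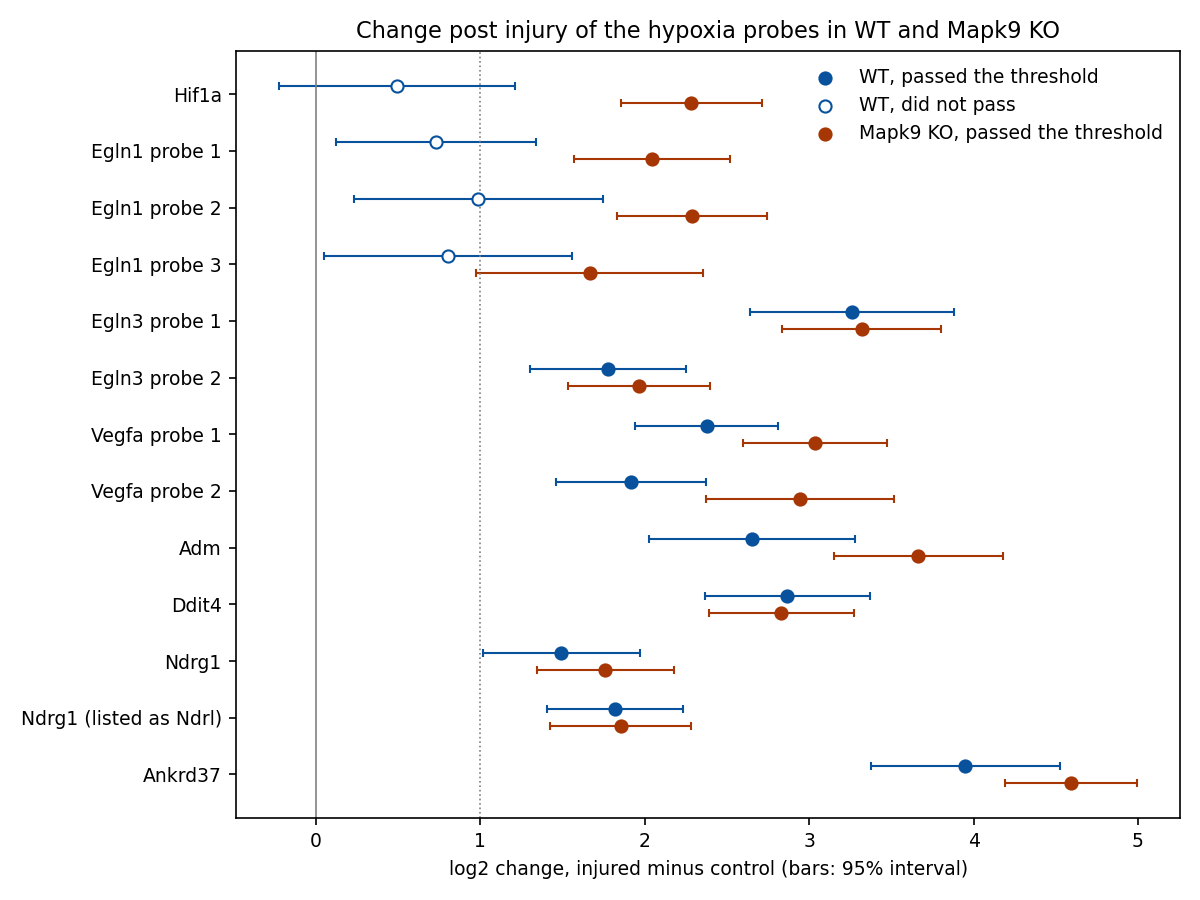
Change post injury (log2, injured minus control) for the 12 member probes and the Ndrg1 probe listed as Ndrl, in WT and Mapk9 KO. Points are the fitted changes, bars the 95% intervals, open points did not pass the threshold and the dotted line marks a fold of 2. Where controls were undetected (Adm, Ankrd37 and Egln1 in Mapk9 KO, Adm in WT, Egln3 probe 2 in Mapk9 KO) the fitted value is drawn, not the bound. The intervals of Hif1a, of Egln1 probes 1 and 2 and, narrowly, of Vegfa probe 2 do not overlap between the genotypes, while those of the other probes do.

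Bnip3, which tags mitochondria for removal, and Ero1l, which drives oxidative protein folding, gave no usable signal. The Bnip3 probe and both Ero1l probes were undetected on all 12 arrays, with detection p-values no lower than 0.548 and 0.321. Their unnormalized signals lay between 96.7 and 142 for Bnip3 and between 96.2 and 146 for Ero1l, and no change was computed. The other 4 probes outside the normalized table (2 of Hif1a and 1 each of Egln3 and Vegfa) were detected on at most 1 array. In unnormalized signal, 1 of these Hif1a probes read 99.5 to 142 on the WT control and 141 to 176 on the WT injured arrays. On the Mapk9 KO arrays it read 107 to 126 before and 131 to 161 post injury. The other read 106 to 173 and 119 to 161 in WT, and 123 to 170 and 112 to 168 in Mapk9 KO. Neither showed the larger Mapk9 KO rise of the normalized Hif1a probe, but signals near background cannot decide the point.

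Without the block, 0 of the 8 genes passed the threshold between the genotypes within a condition, and with the block Hif1a alone did, among injured arrays (1.17 ± 0.17, adjusted p = 0.0494). Among controls 0 of 8 passed (0.149% of all genes did), with 4 of 12 probes at an unadjusted p under 0.05 (Hif1a, Egln1 probe 1 and both Vegfa probes) beside 6.46% of all probes. Among injured arrays 0 of 8 passed (0.201% of all genes), with 3 of 12 probes (Hif1a and Egln1 probes 1 and 2) at an unadjusted p under 0.05 beside 12.6% of all probes. For the interaction 6 of 12 probes of 4 genes (Hif1a, Egln1 probes 1 and 2, both Vegfa probes and Adm) had an unadjusted p under 0.05, with the larger fitted rise in Mapk9 KO, beside 5.91% of all probes with a positive interaction at that p. The overlapping Egln1 probes count as 1 measurement among these, and the Adm value rests on control arrays where the probe was undetected. Since each interaction value rests on the same control and injured arrays as the separate changes, it is no further evidence of them. Averaged over the genotypes, 8 of 8 genes rose, where 8.84% of all genes did.

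Other genes known as hypoxia targets were counted as a list. In that list of 30 measured genes, 15 were upregulated and 1, the collagen cross-linking enzyme Lox, was downregulated in WT. In Mapk9 KO 18 were upregulated and 1, the transferrin receptor Tfrc, was downregulated. P4ha1 and Mxi1 were among the 18 through a lesser probe only, that of Mxi1 detected on 5 arrays. Lox and Tfrc were each counted in 1 genotype by the fold limit, Tfrc at its second probe, and neither passed the interaction test. Of all genes, 8.36% were called higher and 8.25% lower in WT, and 10.6% and 10.4% in Mapk9 KO. The median changes were 0.99 and 1.17. The glucose transporter Slc2a1 had the largest change, 3.60 ± 0.27 in WT and 4.30 ± 0.20 in Mapk9 KO. The adenylate kinase Ak4 rose by 1.99 ± 0.30 and 3.10 ± 0.19 and the secreted glycoprotein Stc2 by 2.22 ± 0.25 and 2.58 ± 0.20. The lactate exporter Slc16a3 was undetected before injury and called higher in both genotypes. Bnip3l, the relative of Bnip3, changed by 0.07 ± 0.24 and 0.09 ± 0.20 and did not pass.

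Of 13 HIF subunits, oxygen sensors and degradation genes, 3 in WT and 4 in Mapk9 KO were upregulated at 1 or more probes (8.36% and 10.6% of all genes) and 0 passed the fold limit downward, with medians of -0.02 and -0.14. Cited2, which competes with HIF for its coactivators, rose by 1.26 ± 0.20 and 1.34 ± 0.19. Vhl, the von Hippel-Lindau gene, was undetected before injury, was called in Mapk9 KO and missed the fold limit in WT. Arnt and Epas1 were called at lesser probes only. Arnt rose by 1.46 ± 0.20 in WT there but changed by -0.31 ± 0.19 at its main probe, and the Epas1 probes that were called were detected on at most 4 arrays.

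Partners of the single genes are given as counts, to be read beside the 8.36% of all genes called higher in WT and 10.6% in Mapk9 KO, and the 8.25% and 10.4% called lower. Of 9 Vegfa relatives and receptors, the ligand Pgf was upregulated in WT (1.12 ± 0.22) and the receptor Nrp2 was downregulated in both genotypes (-1.10 ± 0.24 and -1.17 ± 0.19). The ligand Figf, detected on 1 array, was called lower in WT, and Vegfb was called lower in Mapk9 KO (-1.21 ± 0.17). None of Pgf, Figf and Vegfb passed the interaction test. The receptors Kdr and Flt1 did not pass in either. Of 5 genes of the adrenomedullin receptor and its relatives, the receptor subunit Ramp3 (1.59 ± 0.23 and 1.74 ± 0.23) was upregulated in both, and the ligand Adm2 was called higher in both but detected on only 3 arrays. Of 7 genes of the mTORC1 pathway on which Ddit4 acts, brakes, kinase and effectors together, 3 in WT and 2 in Mapk9 KO were upregulated. Eif4ebp1, the translation repressor, rose by 1.28 ± 0.20 and 1.06 ± 0.18. Ddit4l, the paralog of Ddit4, rose by 1.08 ± 0.22 in WT and changed by 0.93 ± 0.20 in Mapk9 KO, below the fold limit. Tsc1 was in both counts through a lesser probe detected on 6 arrays, and its main probe changed by 0.15 ± 0.22 and 0.04 ± 0.17.

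Among 8 oxidative folding genes 0 passed in WT and 1, the Ero1l paralog Ero1lb, in Mapk9 KO (1.25 ± 0.17). Among 9 mitophagy genes 0 were called in either genotype. The 2 with the highest mean level were Gabarap, which changed by 0.04 ± 0.23 and 0.01 ± 0.23, and the autophagy receptor Sqstm1, at 0.96 ± 0.27 and 0.64 ± 0.18. Of the 2 other Ndrg genes measured, Ndrg2 was downregulated in Mapk9 KO (-2.07 ± 0.27) and changed by -0.82 ± 0.60 in WT. Lists were described by counts and medians beside those of all genes, with no test of the list.

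**Figure D4:**
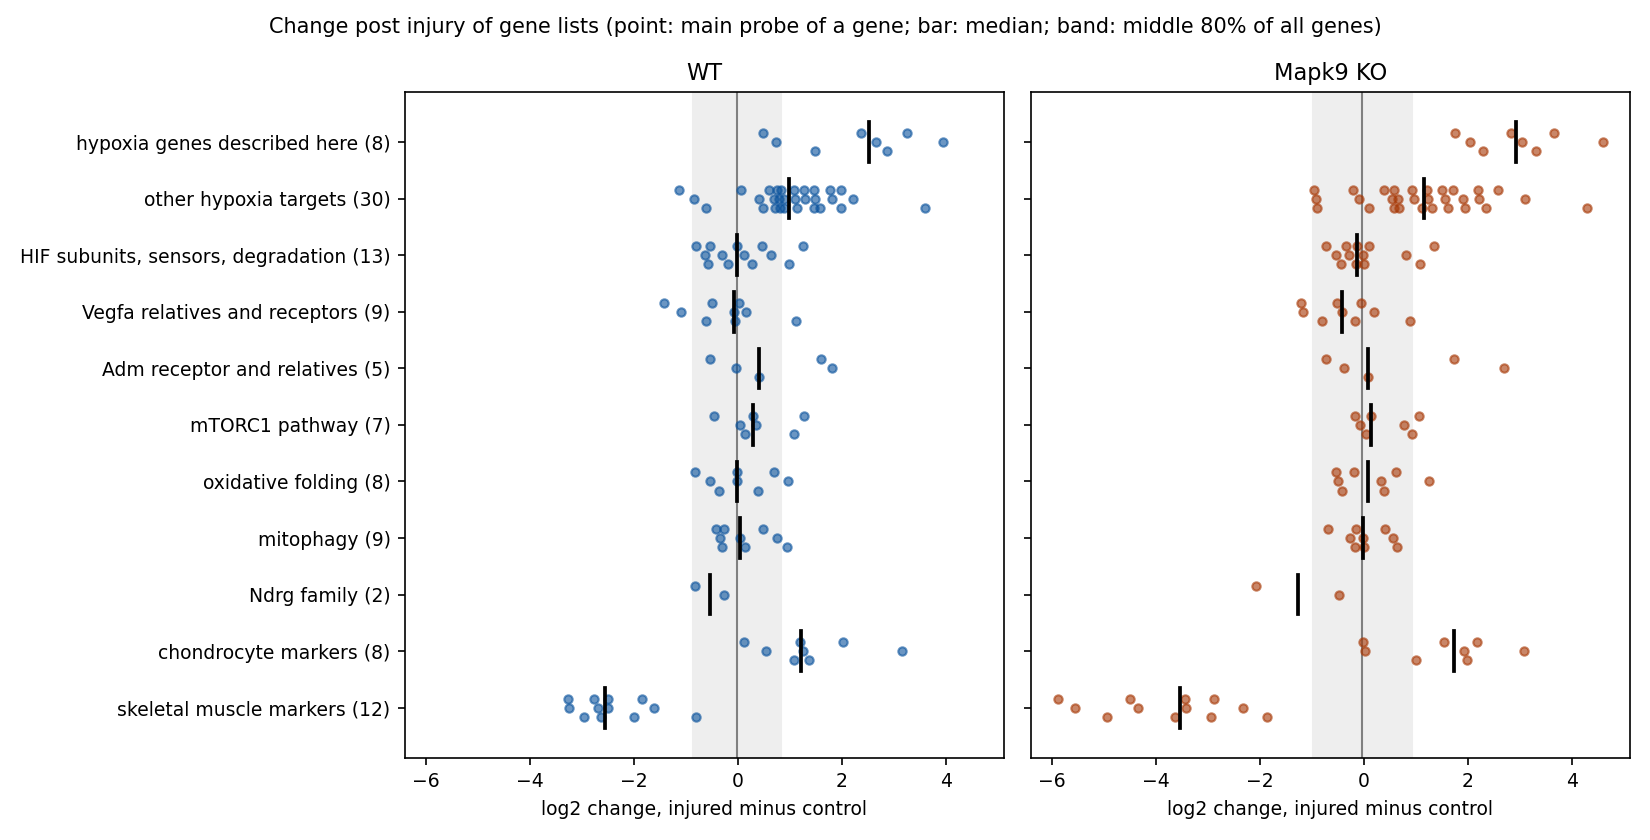
Change post injury (log2, injured minus control) of the main probe of each gene in 11 lists, in WT and Mapk9 KO, with the number of genes in parentheses. Black bars are list medians, the grey line the median of all genes and the band the range from the 10th to the 90th percentile of all genes. The 8 hypoxia genes have medians of 2.52 and 2.93, the muscle markers -2.56 and -3.54.

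The gene whose level followed each member most closely over the 12 arrays was named as a description, since all of them share the 4 groups. It was Gadd45b for Ankrd37 (Pearson r = 0.998), Npn3 for Ddit4 (r = 0.999), Gadd45g for Vegfa (r = 0.995, with Slc2a1 at 0.994), Prg for Egln3 (r = 0.99) and Rab6 for Hif1a (r = 0.99). For Ndrg1 it was 1810011O10Rik (r = 0.989) and for Adm 4931428F04Rik (r = 0.987). For Egln1 the closest entry carried no gene symbol, and the closest named gene was Bsg (r = 0.973).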

How the data were processed

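RNA of 12 hip cartilage samples in 4 groups of 3 was hybridized to Illumina mouse BeadChips. The authors deposited bead signal intensity values for 45281 probes, without normalization, each with a deposited detection p-value against 936 negative controls. They corrected background with negative control probes, normalized with vsn and deposited log2 values for 21004 probes. Their package versions are not given in the sources used here. Between 16930 and 18969 probes were detected (p under 0.05) per array, array correlations were 0.868 to 0.986, and the number of arrays limits the precision.

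The deposited log2 values were tested with limma 3.58.1 (lmFit, eBayes) in R 4.3.3. Each comparison used its own groups, the interaction and the average used all 12 arrays, and Benjamini-Hochberg adjustment ran over all 21004 probes. Calls took more than a 2-fold change with an adjusted p below 0.05, and the interaction only the latter. Errors are standard errors, and 3 arrays per group stand behind each value. A gene was called when at least 1 of its probes was. If no array of a group detected a probe, a lower bound is given against the lowest value of a detected probe on each array. The test was checked on simulated data.

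The main fits took no account of replicate numbers, which paired the samples only in the block alternative and in the within-number changes. The array codes in the labels run in consecutive sets of 4 by number. Deviations from group means correlated at 0.153 to 0.390 between same-numbered samples (18 pairs) and at -0.289 to 0.0825 otherwise (36 pairs).

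All member probes are reported. Of each other list the text gives counts and up to 4 called genes with the largest average change at the main probe, and, where none was called, the 2 with the highest mean. Bnip3l, Kdr, Flt1, Sox9, Lox, Tfrc, Mpo, Bglap, Cd68, S100a8, S100a9, Camp, P4ha1 and Mxi1 were named after their values were seen. Members and lists were chosen with earlier results of these data known. A Tsc2 and an Hbb-b1 probe that RefSeq assigns to other genes were left out of the lists. The methods' t-test, other normalizations, filters and left-out arrays were alternatives. Probe and promoter sequences came from the deposited table and RefSeq (GRCm38.p6).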

Additional observations from a re-analysis of the deposited data

Results flagged for a closer look

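The change of Hif1a post injury differed between WT and Mapk9 KO by 1.79 on the log2 scale, and this difference passed limma's adjusted threshold with the replicate number as a block and not without it. It was larger in Mapk9 KO at each of the 3 replicate numbers. Groups of 3 arrays were not searched for outlying samples.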

How the results depend on the processing

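Restricting the fit to probes detected on all 12 arrays left 4 called genes in WT against 6, 5 in Mapk9 KO and 5 on average against 8. That filter removes probes undetected before injury and keeps only Hif1a, Egln3, Vegfa, Ddit4 and Ndrg1. Of these, Hif1a in WT alone was not called. With the replicate block 1 gene, Hif1a, passed the genotype difference among injured arrays and 1, again Hif1a, the interaction. The block changed no other member call, and WT Egln1 then missed only the fold limit. Leaving out single replicates gave 6 to 7 called genes in WT, 8 in Mapk9 KO and 8 on average, 0 for the genotype difference among controls, 0 to 1 among injured arrays (1 without WT injured replicate 1) and 0 for the interaction. Over all probes the block raised the interaction calls from 0 to 112 and the genotype calls among injured arrays from 38 to 188, but with 1 replicate number left out the blocked counts were 0, 1 and 22 and 20, 13 and 172. Without WT control replicate 3 the interaction calls over all probes were 242 and the genotype calls among controls 412 against 25. That array also decided Egln1 calls in WT. The methods' t-test called 1624 probes in WT, against 3086. Quantile normalization without background correction called 1140 there, 1756 in Mapk9 KO against 3934 and 1413 on average against 3354, and the average Egln1 change fell under the fold limit (0.71 at the main probe). No alternative turned the direction of a called member. Of 854 values computed at the main probe of each gene, 850 kept their side of the threshold. Counted over all its probes, Egln1 in WT was also called under the 4 settings given with it. The replicate block with 1 number left out was added after seeing the data. Values near background limit Adm, Ankrd37, Egln1 and Egln3 probe 2. Adm was undetected on all control arrays, and Ankrd37 and Egln3 probe 2 on all but 1. The main Egln1 probe was undetected on the Mapk9 KO control arrays but detected on all WT control arrays.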
